A study of Mus musculus with 24 samples.

Results

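The genes described here are the 10 core members of the MHC class I antigen presentation pathway and of the immunoproteasome, taken by symbol from the 23420 gene symbols counted in each of 24 mouse RNA-seq libraries. They are the classical heavy chains H2-K1 and H2-D1 with their light chain B2m, the peptide transporter subunits Tap1 and Tap2 with the bridging chaperone Tapbp (tapasin), the inducible proteasome subunits Psmb8, Psmb9 and Psmb10, and the transcriptional activator Nlrc5. All 10 were counted in all 24 libraries and all 10 were tested in every comparison.

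MHC class I molecules present peptides from cytosolic proteins to CD8 T cells on almost every nucleated cell. The proteasome cuts the proteins, and the immunoproteasome forms when Psmb8, Psmb9 and Psmb10 take the places of the constitutive catalytic subunits Psmb5, Psmb6 and Psmb7. Tap1 and Tap2 pump the peptides into the endoplasmic reticulum, where tapasin holds empty heavy chains beside the transporter until a peptide is bound. Nlrc5 drives the promoters of these genes, and in macrophages Toll-like receptor ligands and interferons raise many of them.

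The libraries fell into 10 groups of polyadenylated RNA from C57BL/6 mice aged 8 to 16 weeks. WT and TDG iKO Th2 cells (CD4 T cells differentiated in culture toward the IL-4-secreting helper type) gave 4 libraries each, and bone marrow-derived macrophages (BMDMs) gave 2 libraries in each of 8 groups. These 8 were WT and TDG iKO of a Tdg cohort and WT and TET iTKO of a Tet cohort, each unstimulated (0 h) or given the Toll-like receptor 4 agonist KLA for 6 h. The knockouts carried floxed Tdg, or floxed Tet1, Tet2 and Tet3, with a tamoxifen-inducible CreERT2 transgene and a Rosa26 reporter, and tamoxifen (2 mg, 5 days) was given to the controls as well as to the mice with Cre. Tdg encodes a glycosylase that removes the oxidised bases 5-formylcytosine and 5-carboxylcytosine from DNA. The TET dioxygenases make those bases and 5-hydroxymethylcytosine from 5-methylcytosine. Each comparison of a knockout with WT asked what the RNA level of these genes was without one of those steps. Each knockout was set against the WT of its own cohort.

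Assigned counts ran from 4982950 to 26657729 per library. Summed macrophage markers were 22173 to 29306 CPM (counts scaled to a common library total) in BMDMs against 10.0 to 60.4 in Th2 cells, and summed T cell markers were 2775 to 4106 in Th2 cells against 8.23 to 28.04 in BMDMs. Per-gene counts do not resolve the floxed exons: Tdg was at 0.0 to 9.2 normalised counts in every library, so whole-gene counts do not check the labels. In the Tet cohort Tet2 and Tet3 were not lower in the knockout: at 0 h Tet2 had 505.6 and 602.7 normalised counts in WT and 736.9 and 702.1 in TET iTKO, and Tet3 had 1381 and 1326 against 1533 and 1413. At 6 h the TET iTKO libraries were likewise above both WT libraries for each gene. Replicates 3 and 4 of each Th2 genotype agreed within little more than counting noise (mean chi-square per gene of 1.51 and 1.34, against at least 10.9 in other replicate pairs) and were counted as 1 sample, so n was 3 in Th2 cells. Replicate 2 of unstimulated WT BMDMs in the Tdg cohort stood apart, with the lowest depth of all libraries. Results that rest on it are given with and without it, or said not to have been recomputed. No source says which libraries came from separate animals, so p-values measure the spread between these samples, which may be technical.

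Members lie close together in the genome, which bears on how their reads can be assigned. In mm9 with GENCODE M1 gene models, Tapbp (chr17:34052844-34066235, + strand), H2-K1 (chr17:34132962-34137278, - strand), Psmb9 (chr17:34318932-34324709, - strand), Tap1 (chr17:34324498-34334170, + strand), Psmb8 (chr17:34334666-34338399, + strand), Tap2 (chr17:34340472-34353266, + strand) and H2-D1 (chr17:35399675-35404444, + strand) lie in the MHC on chromosome 17.

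Psmb10 (chr8:108459628-108462292, - strand) and Nlrc5 (chr8:96996663-97051172, + strand) are on chromosome 8, and B2m (chr2:121973422-121978819, + strand) is on chromosome 2. Of the windows of 50 bases in H2-K1 exons, 16.97% had an exact copy elsewhere in the genome, mostly in H2-D1 and the H2-Q genes, and for H2-D1 the share was 14.6%. The files tally reads that did not align uniquely apart from the genes (16.6% to 32.2% of each library), so both heavy chains are uncertain in the part of their reads shared with close copies. The exons of Tap1 and Psmb9 overlap by 212 bases on opposite strands, and those of Tap2 and of Psmb8 overlap antisense gene models by 698 and 187 bases. The strand setting of the counting was not given in the sources used here, so reads in those stretches cannot be ascribed to either partner.

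The promoters of H2-K1 and B2m are shown because these are the most abundant members and each held several of the motifs searched. Sequences are those of the RefSeq promoter table (GRCm38.p6), matched exactly in mm9, upstream of the transcription start only and written 5′ to 3′ along the gene, with the motif matches in capitals.
H2-K1 (chr17:34137279-34137408, - strand): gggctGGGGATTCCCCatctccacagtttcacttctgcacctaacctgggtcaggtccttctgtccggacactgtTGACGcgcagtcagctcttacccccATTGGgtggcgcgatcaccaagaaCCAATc
B2m (chr2:121973279-121973379, + strand): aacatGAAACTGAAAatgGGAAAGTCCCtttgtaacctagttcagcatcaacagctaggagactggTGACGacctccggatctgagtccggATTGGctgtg

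The capitals mark, in H2-K1, 2 overlapping matches to the NF-kB consensus, then TGACG (the core of a CRE-like X2 box) and CCAAT (the NF-Y site) on either strand. In B2m they mark the core of an interferon-stimulated response element (GAAA, any 2 bases, GAAA), the NF-kB consensus, TGACG and CCAAT. H2-D1 held the same motif kinds as H2-K1, with the NF-kB matches 171 to 161 bases before the start. Tap1 and Psmb9 face each other and share a stretch with TGACG and CCAAT, Tapbp held 2 CCAAT matches, Psmb8 held TTCNNNGAA (a gamma-activated site core), and Psmb10 held none of the 5 motifs. Among 32841 promoter windows of 250 bases, both strands searched, the interferon-stimulated core was found in 2.98%, TTCNNNGAA in 7.02%, the NF-kB consensus in 7.25%, TGACG in 17.8% and CCAAT in 33.9%. The table held promoters for 8 of the 10 members, all but Tap2 and Nlrc5.

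**Figure D1:**
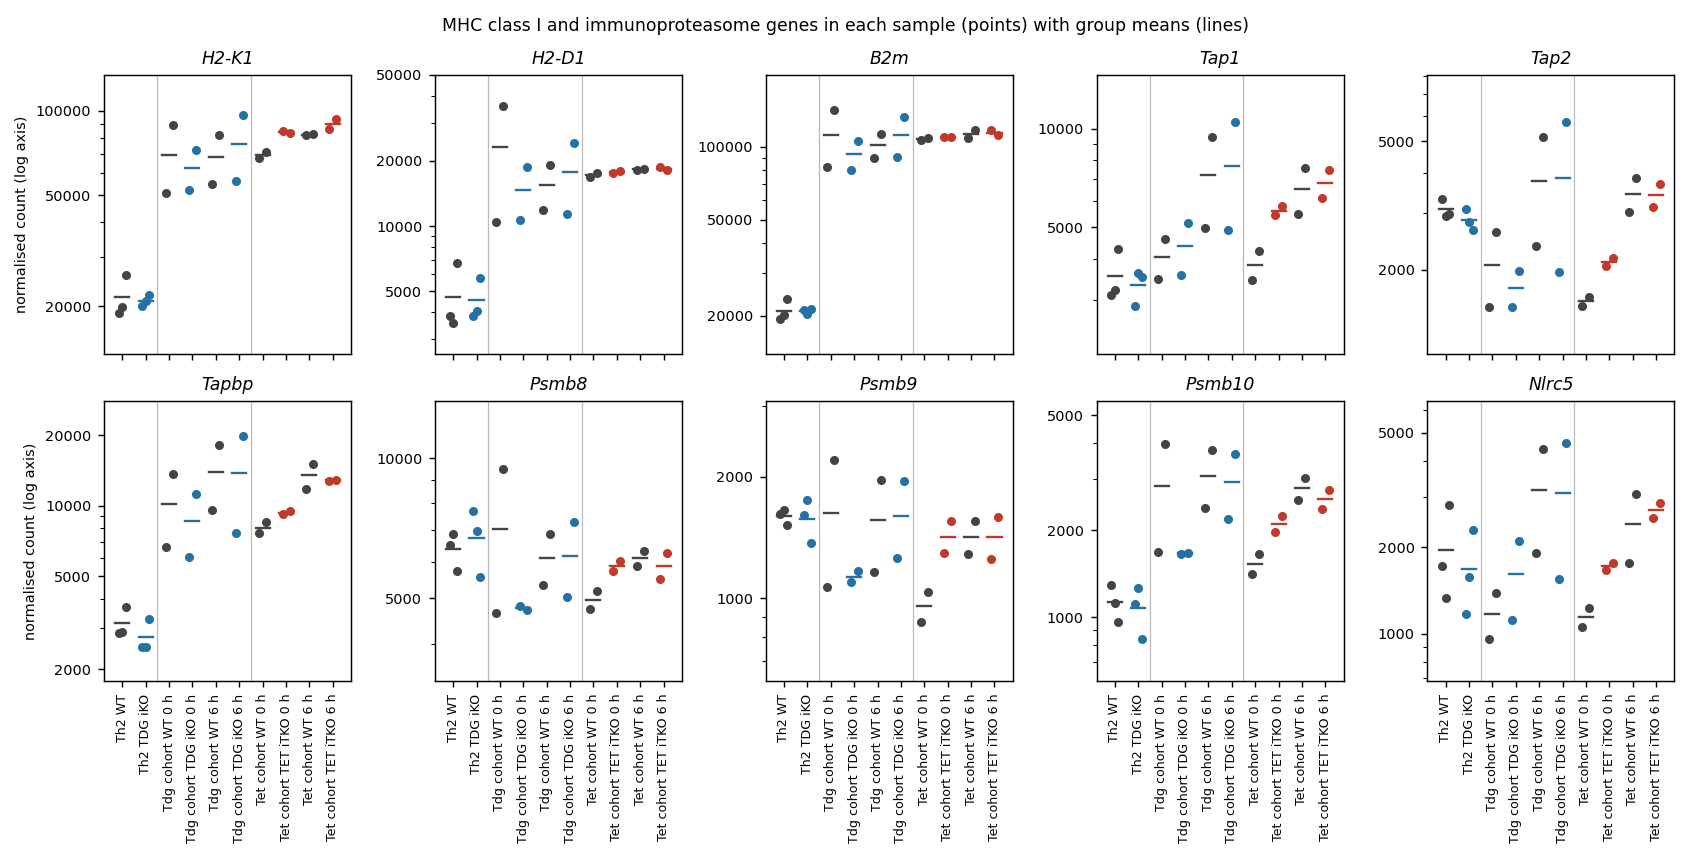
Normalised count (log axis) of each of the 10 genes in each sample (points) of the 10 groups, with group means as lines; WT is grey, TDG iKO blue and TET iTKO red, and Th2 replicates 3 and 4 are 1 point. B2m, H2-K1, H2-D1 and Tapbp are lower in every Th2 sample than in every BMDM sample, and Tap1, Tap2, Tapbp, Psmb10 and Nlrc5 sit higher at 6 h than at 0 h in WT BMDMs of the Tet cohort.

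The 10 genes spanned a wide range of levels. Per kilobase of transcript, B2m was first and H2-K1 second in WT Th2 cells and in unstimulated WT BMDMs of both cohorts, with B2m at 124933 normalised counts per kilobase in WT BMDMs of the Tet cohort and H2-K1 at 43469. Both were above 99.8% of the genes ranked on this scale in all 3 groups. Nlrc5 was last in each, at 157 normalised counts per kilobase in the same BMDMs, which placed it above 76.8% of genes. Across the 10 group means, B2m varied most, by 5.47-fold, followed by H2-D1 (5.07-fold), Tapbp (5.05-fold) and H2-K1 (4.31-fold). Without the shallow library the H2-D1 value was 4.05-fold, below those of Tapbp and H2-K1, which did not move. Psmb8 varied least, by 1.48-fold. Most neighbours in these orders did not differ beyond their spread: of the 9 neighbouring pairs of groups per gene, the sample ranges were apart in 3 for H2-K1 and Psmb10, in 2 for H2-D1, B2m and Psmb9, in 1 for Tap1, Tap2, Tapbp and Psmb8, and in 0 for Nlrc5. The same count was not made over all genes, so it cannot be said whether these numbers are usual.

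In unstimulated BMDMs, 6 of the 10 genes were higher in TET iTKO than in WT by DESeq2 (adjusted p under 0.05), against 4.42% of the 12114 genes tested that were higher. They were Nlrc5, Psmb9, Tap1, Psmb10, Tap2 and H2-K1, by 1.21-fold to 1.502-fold, and the median log2 fold change of the 10 was 0.34, against 0.01 over all genes tested. The calls were the regulator, both transporter subunits, 2 of the 3 inducible subunits and 1 heavy chain, whereas B2m and H2-D1 differed by less than their error. By edgeR only Psmb9 passed (adjusted p = 0.0495), with 3.30% of genes called higher. A bulk level cannot tell fewer cells of a type from less RNA per cell.

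Nlrc5, the activator of the pathway, had 1058 and 1227 normalised counts in the 2 WT libraries and 1666 and 1766 in the 2 TET iTKO libraries, a log2 difference of 0.59 ± 0.19 (SE, adjusted p = 0.0277). The WT and TET iTKO values were apart by more than the gap between replicates of either. Tap1, the transporter subunit next to Psmb9, had 3452 and 4228 normalised counts in WT and 5432 and 5819 in TET iTKO (log2 0.55 ± 0.15, adjusted p = 0.0069). Its partner Tap2 had 1547 and 1640.4 in WT and 2052 and 2181 in TET iTKO (log2 0.41 ± 0.14, adjusted p = 0.0367). Both transporter subunits were thus higher in each TET iTKO library than in either WT library. Such a separation of 2 libraries from 2 cannot go below 0.333 in a two-sided exact permutation test, and its share over all genes was not counted. Tapasin had 7617 and 8512 normalised counts in WT and 9175 and 9477 in TET iTKO, and at a log2 difference of 0.21 ± 0.12 it did not pass (adjusted p = 0.400).

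Among the inducible subunits, Psmb9 had 873 and 1038 normalised counts in WT and 1291 and 1552 in TET iTKO (log2 0.57 ± 0.16, adjusted p = 0.0069). Psmb10 had 1409 and 1659.9 in WT and 1965 and 2237 in TET iTKO (log2 0.45 ± 0.14, adjusted p = 0.0177). Psmb8, the most abundant of the 3, had 4748 and 5179 in WT and 5713 and 6026 in TET iTKO, and its log2 difference of 0.24 ± 0.11 did not pass (adjusted p = 0.186). All 3 subunits were above WT in each TET iTKO library, a separation whose share over all genes was not counted. The heavy chain H2-K1 had 67986 and 71549.8 normalised counts in WT and 84996 and 83389 in TET iTKO (log2 0.27 ± 0.09, adjusted p = 0.0379). H2-D1, the other heavy chain, had 16796 and 17502 in WT and 17528 and 17984 in TET iTKO (log2 0.05 ± 0.09), and B2m had 106380 and 108504 against 109419 and 109266 (log2 0.03 ± 0.09).

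These calls were not stable to the loss of a library. In all fits with a library left out, a group left with 1 library was assumed to vary like the other groups of the fit. Without WT replicate 1 or without TET iTKO replicate 2, 0 of the 10 passed. Without TET iTKO replicate 1, Psmb9 and Psmb10 passed, and without WT replicate 2, Tap1, Psmb9 and Psmb10 passed. The estimate was above 0 for all 10 genes in each of these 4 fits, with Tap1 between 0.41 and 0.70 and Nlrc5 between 0.48 and 0.69 on the log2 scale. Markers of other cells moved with genotype in these libraries: the 4 granulocyte and progenitor markers counted summed to 28.1 to 51.9 CPM in WT and 65.4 to 135 in TET iTKO, the 4 B cell markers to 1.49 to 1.82 and 5.48 to 21.8, and the 9 macrophage markers to 26538 to 27824 and 23436 to 23592. None of the 4 granulocyte or 4 B cell markers was at 0 in either group. At 6 h the same lists stood at 34.7 to 36.4 against 70.1 to 105, at 1.72 to 2.36 against 3.83 to 18.8, and at 26101 to 27956 against 23146 to 23426. Their part in the differences was not tested.

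**Figure D2:**
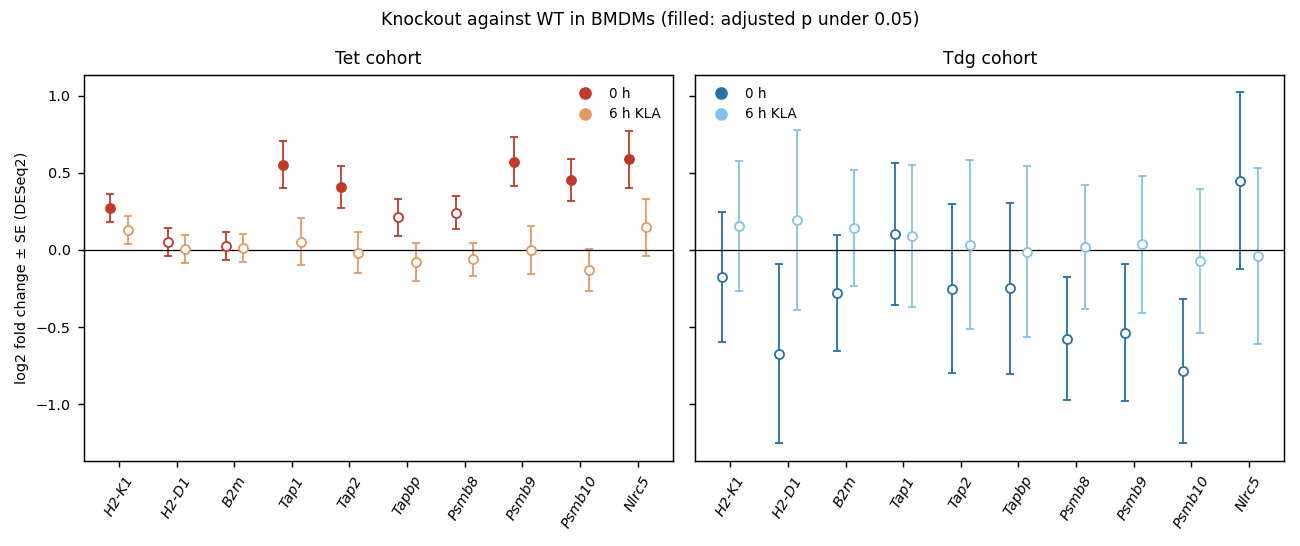
log2 fold change of knockout against WT (points, DESeq2) with its SE (bars) for each gene at 0 h and after 6 h of KLA, in the Tet cohort (left) and the Tdg cohort (right); filled points passed an adjusted p of 0.05. Only TET iTKO at 0 h has filled points, for 6 genes from 0.27 to 0.59, while the TET iTKO points at 6 h lie between -0.13 and 0.15 and the bars of the Tdg cohort are wider.

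After 6 h of KLA, 0 of the 10 genes passed between TET iTKO and WT by DESeq2, where 6.45% of 11823 genes were called. None had an unadjusted p under 0.05, and edgeR called 0 as well. The log2 differences ran from -0.13 (Psmb10) to 0.15 (Nlrc5) with a median of 0.00. Nlrc5 had 1767 and 3061 normalised counts in the WT libraries and 2525 and 2848 in TET iTKO, and Tap1 had 5489 and 7579.6 against 6129 and 7490.3. In both genes the TET iTKO values fell inside the WT range. The 95% interval of the difference was -0.24 to 0.35 for Tap1 and -0.31 to 0.31 for Psmb9 on the log2 scale. Without WT replicate 2 at 6 h, which had the higher Nlrc5 of that pair, Nlrc5 was higher in TET iTKO by 0.60 (adjusted p = 0.0026).

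KLA raised the pathway in WT BMDMs of the Tet cohort. Of the 10 genes, 8 were higher at 6 h than at 0 h by DESeq2, against 12.8% of the 12114 genes tested. By edgeR the same number passed, 8 of 10, against 14.3% of 11441 genes called higher. Tap2 and Nlrc5 rose most, by 2.17-fold and 2.13-fold, followed by Psmb10 (1.83-fold), Tap1 (1.71-fold), Tapbp (1.68-fold) and Psmb9 (1.49-fold), with Psmb8 (1.24-fold) and H2-K1 (1.18-fold) the smallest. The median log2 fold change of the 10 was 0.66, against -0.01 over all genes tested. This comparison and that of TET iTKO with WT at 0 h share the 2 unstimulated WT libraries, so they are not independent.

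Tap2 went from 1547 and 1640.4 normalised counts at 0 h to 3015 and 3851 at 6 h (log2 1.12 ± 0.14 by DESeq2, adjusted p = 3.837e-15). Nlrc5 went from 1058 and 1227 to 1767 and 3061 (1.09 ± 0.19, adjusted p = 7.421e-08), so its 2 stimulated libraries differed from each other by more than the lower one differed from the unstimulated pair. Tapasin went from 7617 and 8512 to 11828 and 15115.5 (0.75 ± 0.12, adjusted p = 1.094e-08). In each of these genes both 6 h libraries were above both 0 h libraries, a separation whose share over all genes was not counted. The inducible subunits moved by unequal amounts: Psmb10 went from 1409 and 1659.9 to 2541 and 3044 (0.87 ± 0.14), and Psmb9 from 873 and 1038 to 1284 and 1549 (0.58 ± 0.16). Psmb8 went from 4748 and 5179 to 5879.8 and 6328 (0.31 ± 0.11, adjusted p = 0.0213). H2-D1 and B2m did not pass, at log2 differences of 0.10 ± 0.09 and 0.08 ± 0.09.

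Leaving out a library removed the smaller of these calls. Tap1, Tap2, Tapbp, Psmb10 and Nlrc5 passed whichever of the 4 libraries was left out. H2-K1 passed in none of these fits. Psmb8 and Psmb9 were lost without WT replicate 1 at 0 h (5 of 10 left) and without WT replicate 2 at 6 h (5 left), Psmb8 was also lost without WT replicate 2 at 0 h (6 left), and 7 were left without WT replicate 1 at 6 h.

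In TET iTKO BMDMs, 3 of the 10 genes passed after KLA by DESeq2, all of them higher. By edgeR 3 passed as well, against 13.4% of 11441 genes called higher. Of the 11240 genes tested by DESeq2, 1456 were higher, and 24.7% were called in either direction. Tap2 went from 2052 and 2181 normalised counts to 3119 and 3691 (log2 0.69 ± 0.13, adjusted p = 3.729e-06). Nlrc5 went from 1666 and 1766 to 2525 and 2848 (0.65 ± 0.19, adjusted p = 0.0031), and Tapbp from 9175 and 9477 to 12726 and 12924 (0.46 ± 0.12, adjusted p = 0.0011). Psmb8 and Psmb9 gave 0.00 ± 0.11 and 0.00 ± 0.16. Without any 1 of the 4 libraries, Nlrc5 no longer passed and 2 genes, Tap2 and Tapbp, did. In this cohort the 0 h and 6 h libraries of a replicate carry a shared number in their deposited names. With that replicate as a block nested in genotype, Tap1 (0.27 ± 0.09, adjusted p = 0.0083) and Psmb10 (0.29 ± 0.09, adjusted p = 0.0101) passed too, making 5 of 10. In that fit 26.2% of genes were called in either direction, and 14.0% of genes were higher.

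**Figure D3:**
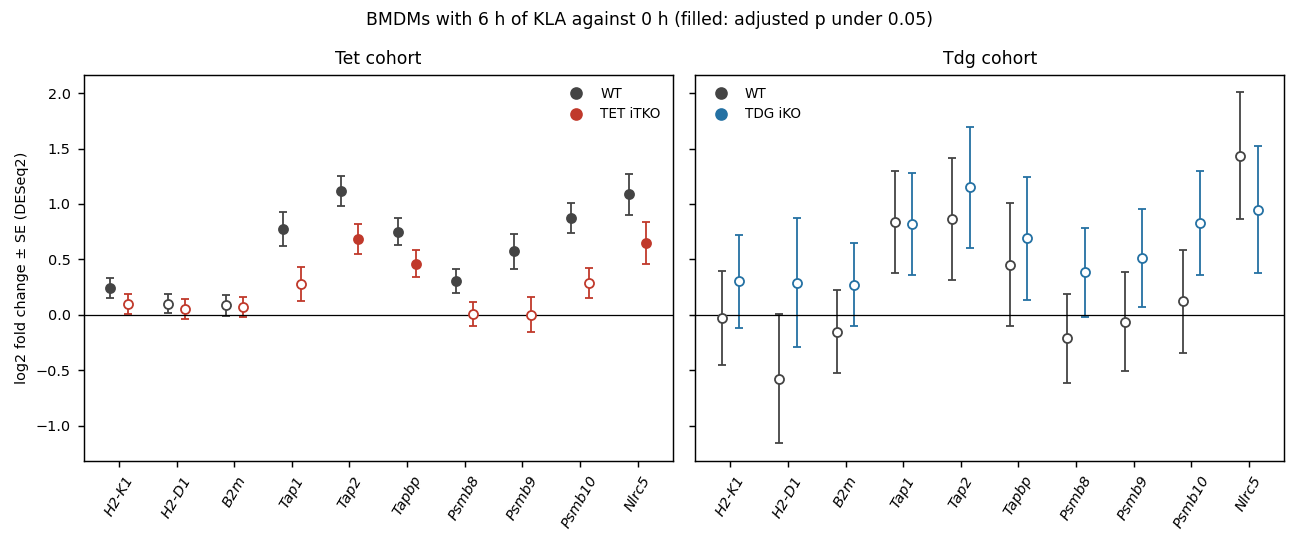
log2 fold change of 6 h KLA against 0 h (points, DESeq2) with its SE (bars) for each gene in WT (grey) and knockout (coloured) BMDMs of the Tet cohort (left) and the Tdg cohort (right); filled points passed an adjusted p of 0.05. In the Tet cohort 8 WT and 3 TET iTKO points are filled and each WT point lies above its TET iTKO point, and in the Tdg cohort no point is filled.

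The change of the KLA response with genotype was tested as an interaction. By DESeq2 0 of the 10 passed, against 0.429% of 12114 genes called, and edgeR called 0. All 10 estimates were negative, with a median of -0.37 on the log2 scale, against -0.01 over all genes tested. Of the members, 5 (Tap1, Tap2, Psmb8, Psmb9 and Psmb10) had an unadjusted p under 0.05 by DESeq2. The share of all genes with such a p is not given here, so that count has no background. The largest was Psmb10, at -0.59 ± 0.19 (95% interval -0.96 to -0.21, adjusted p = 0.269). With the block nested in genotype, 3 passed, Psmb10 (-0.59 ± 0.13, adjusted p = 0.00093), Tap1 (-0.49 ± 0.12, adjusted p = 0.0042) and Psmb9 (-0.58 ± 0.16, adjusted p = 0.0119), and 2.51% of genes were called. Without WT replicate 1 at 6 h, 4 passed (Tap1, Tap2, Psmb10 and Nlrc5), the last at -0.78, and without any 1 of the other 7 libraries, 0 did.

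In the Tdg cohort no member passed between TDG iKO and WT at either time, where 0.0% of 15026 genes were called by DESeq2 at 0 h and 0.0% at 6 h. The unadjusted p was under 0.05 for 265 genes at 0 h and 34 at 6 h, none of them a member, and edgeR called 0 genes in both. At 0 h the log2 differences ran from -0.78 ± 0.47 (Psmb10) to 0.45 ± 0.57 (Nlrc5), and at 6 h from -0.07 ± 0.47 (Psmb10) to 0.19 ± 0.58 (H2-D1). For each of the 10 genes the SE was larger than in the Tet cohort. The 95% interval of the TDG iKO effect on Tap1 was -0.80 to 1.01 at 0 h, which holds the 0.55 measured in TET iTKO.

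The spread of the Tdg cohort was between its replicates, and it was not confined to the shallow library. H2-K1 was higher in replicate 2 than in replicate 1 in every group of the cohort, with 54910 and 82287 normalised counts in WT at 6 h. At 6 h Tap1 had 4989 in replicate 1 and 9416 in replicate 2 of WT, and 4893 and 10457 in TDG iKO. H2-D1 had 10426 and 35754 normalised counts in the 2 WT libraries at 0 h and 10639 and 18661 in the 2 TDG iKO libraries, and Psmb10 had 1680.4 and 3989.6 against 1654 and 1669.99. In both genes the high value was that of WT replicate 2, the shallow library. Across genes, the fold change at 0 h followed gene length (Spearman rho of 0.603 over 8829 genes, which are not independent replicates). With that library left out, the median log2 difference of the 10 members turned from -0.27 to 0.27 and 0 passed. With WT replicate 1 left out instead, Psmb8 (-1.02, adjusted p = 0.0494) and Psmb10 (-1.29, adjusted p = 0.0473) passed, with the shallow library as the only WT library and its spread taken from the other groups.

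KLA gave no call among the 10 genes in the Tdg cohort by DESeq2 without a replicate block, where 8.73% of genes were called in WT and 6.95% in TDG iKO, and edgeR gave 0 in both. Nlrc5 went from 959 and 1386 normalised counts to 1911 and 4412 in WT (log2 1.44 ± 0.57, adjusted p = 0.107 by DESeq2) and from 1113 and 2107 to 1557 and 4601 in TDG iKO (0.95 ± 0.57). Tap2 went from 1529 and 2619 to 2371 and 5162 in WT (0.86 ± 0.55) and from 1529.5 and 1981 to 1961 and 5763 in TDG iKO (1.15 ± 0.55, adjusted p = 0.285). Those were the lowest unadjusted p-values of the 10 in their comparisons and the only ones under 0.05, 1 gene in each. In TDG iKO all 10 estimates were positive with a median of 0.60, and in WT 5 were, with a median of 0.05. Without WT replicate 2 at 0 h the WT median was 0.74, and without WT replicate 1 at 0 h it was -0.39, with 0 passing in either. Without TDG iKO replicate 1 at 6 h, Tap2 passed in TDG iKO (1.73, adjusted p = 0.0323). The interaction with TDG gave 0 of 10 by either tool, with 0.0% of genes called by DESeq2, none of the members at an unadjusted p under 0.05 and 37 genes so in all. With the replicate number as a block nested in genotype, Tap1, Tap2 and Nlrc5 passed in WT by DESeq2 (Nlrc5 1.33 ± 0.28, adjusted p = 4.36e-05). In TDG iKO, Tap1, Tap2, Psmb10 and Nlrc5 passed in that fit. It called 16.1% of genes in WT and 11.4% in TDG iKO, with 10.1% and 6.4% higher. The libraries of this cohort share only replicate numbers, which are not stated to mark a common source.

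Set against each other in a fit of all 16 BMDM libraries, the TET effect at 0 h did not differ from the TDG effect for any of the 10 genes by DESeq2 or edgeR, where DESeq2 called 0.34% of 11172 genes. All 10 differences were positive, from 0.14 (Nlrc5) to 1.24 (Psmb10), and Psmb9 and Psmb10 had an unadjusted p under 0.05 by DESeq2 (adjusted p = 0.755 and 0.682). The share of all genes with such a p is not given here. Across genes the difference at 0 h followed gene length (Spearman rho of -0.465 over 9051 genes, which are not independent replicates). The part of length in the member differences was not tested. The median difference of 0.57 became 0.07 without the shallow WT library and 0.96 without the other unstimulated WT library of the Tdg cohort, when Psmb8, Psmb9 and Psmb10 passed. At 6 h the differences ran from -0.18 (H2-D1) to 0.20 (Nlrc5), 0 passed by either tool, none had an unadjusted p under 0.05, and 0.0888% of genes were called by DESeq2.

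In Th2 cells, TDG iKO and WT differed in none of the 10 genes by DESeq2 (0.0% of 15826 genes called) or edgeR, and no member had an unadjusted p under 0.05, as 77 genes in all had by DESeq2 and 55 by edgeR. The log2 differences ran from -0.21 ± 0.38 (Nlrc5) to 0.08 ± 0.20 (Psmb8). B2m was 21002 ± 2201 normalised counts in WT and 20925 ± 579 in TDG iKO (SD, n = 3), and the 95% interval of the log2 difference, -0.30 to 0.28, was the second narrowest after that of Tap2 (-0.40 to 0.17). The sample joined from replicates 3 and 4 stood apart in both genotypes: Nlrc5 was 1722, 1337 and 2802 in WT and 1176, 1577 and 2295 in TDG iKO, with the joined sample last. Samples of the same replicate number deviated alike from their group means in the genotypes (r of 0.476, 0.656 and 0.898). Deviations within a group cancel out, so the offset of the joined sample moves the other samples of both genotypes the same way. These r values therefore cannot show whether the other replicate numbers pair samples. With the replicate number as a block, 0 members and 15 genes in all passed.

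**Figure D4:**
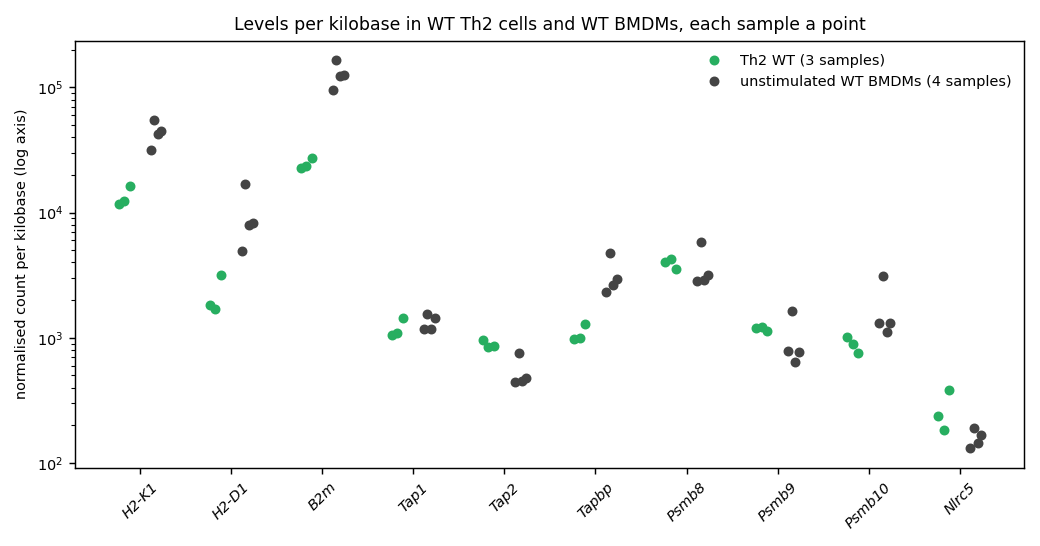
Normalised counts per kilobase (log axis) of each gene in WT Th2 cells (green, 3 samples) and in unstimulated WT BMDMs of both cohorts (grey, 4 samples). The green points of B2m, H2-K1, H2-D1 and Tapbp lie below all grey points, those of Tap2 lie above all grey points, and those of Psmb8 and Psmb9 lie within the range of the grey points.

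WT Th2 cells and unstimulated WT BMDMs were compared to ask how the 10 genes differ between the cell types. Most of the 13936 genes tested differed (54.7%, with 29.4% higher and 25.4% lower in Th2 cells by DESeq2). Of the 10 members, 5 were lower and 2 higher. A call is thus common among all genes in this comparison and says little that is particular to a member. Lower in Th2 cells were B2m, by 2.38 ± 0.26 on the log2 scale, H2-D1 (-2.07 ± 0.42), H2-K1 (-1.69 ± 0.27), Tapbp (-1.52 ± 0.30) and Psmb10 (-0.88 ± 0.33, adjusted p = 0.0150). Higher were Tap2 (0.77 ± 0.25, adjusted p = 0.0056) and Nlrc5 (0.76 ± 0.32, adjusted p = 0.0319). Tap1 (-0.15 ± 0.24), Psmb8 (0.12 ± 0.29) and Psmb9 (0.36 ± 0.29) did not pass.

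The heavy and light chains thus stood lower in Th2 cells, while the regulator did not. B2m had 19377.5, 20121 and 23507 normalised counts in the 3 Th2 samples and 82298, 142188, 106380 and 108504 in the BMDM libraries, and H2-K1 had 18838, 19852 and 25966 against 50653, 89023, 67986 and 71549.8. Neither gene's groups came near each other. Nlrc5 had 1722, 1337 and 2802 in Th2 cells against 959, 1386, 1058 and 1227, with 1 Th2 sample below the highest BMDM library. Its call was lost by edgeR (adjusted p = 0.0623), with TMM scaling (adjusted p = 0.0816), and without any 1 of 5 samples: Th2 replicate 1, the joined Th2 sample (0.41), WT replicate 1 of the Tdg cohort and either WT library of the Tet cohort. The call of Psmb10 was lost without Th2 replicate 2, the joined Th2 sample or WT replicate 2 of the Tet cohort (-0.83, adjusted p = 0.0807). Without the shallow library, Psmb9 passed as higher in Th2 cells (0.61, adjusted p = 0.0011). The scaling between such unlike cells is itself uncertain: the median of all genes tested was 0.17 with the size factors of DESeq2 and 0.08 by edgeR.

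Shares of each inducible subunit over itself plus its constitutive counterpart, per kilobase and within a library, do not depend on that scaling. They are given as description, since 2 libraries against 2 cannot go below 0.333 in a two-sided exact permutation test. Psmb8 held 70.6% to 83.0% of the Psmb8 and Psmb5 sum in every sample of both cell types. Psmb9 held less, 34.2% ± 6.8 of the Psmb9 and Psmb6 sum in WT Th2 cells (SD, n = 3) and 22.2% ± 1.5 in unstimulated WT BMDMs of the Tet cohort (n = 2). In TET iTKO at 0 h the Psmb9 share was 30.3% and 34.6% in the 2 libraries against 21.1% and 23.2% in WT, and after KLA it was 22.6% and 27.9% against 19.1% and 21.1%. The TET iTKO libraries were above the WT libraries at both times, and at 6 h Psmb6 was lower in TET iTKO (-0.43 ± 0.11, adjusted p = 0.0020 by DESeq2) while Psmb9 was not.

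The Psmb10 share of the Psmb10 and Psmb7 sum was 38.8% and 40.4% in WT BMDMs of the Tet cohort at 0 h and 46.6% and 50.2% in TET iTKO. After KLA it was 48.3% and 53.4% in WT and 49.3% and 52.5% in TET iTKO, where the genotypes overlapped. Both unstimulated TET iTKO libraries thus lay between the unstimulated WT pair and the top of the stimulated WT pair. In WT Th2 cells the Psmb10 share was 32.8% ± 8.2, with samples from 26.1% to 41.98%.

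**Figure D5:**
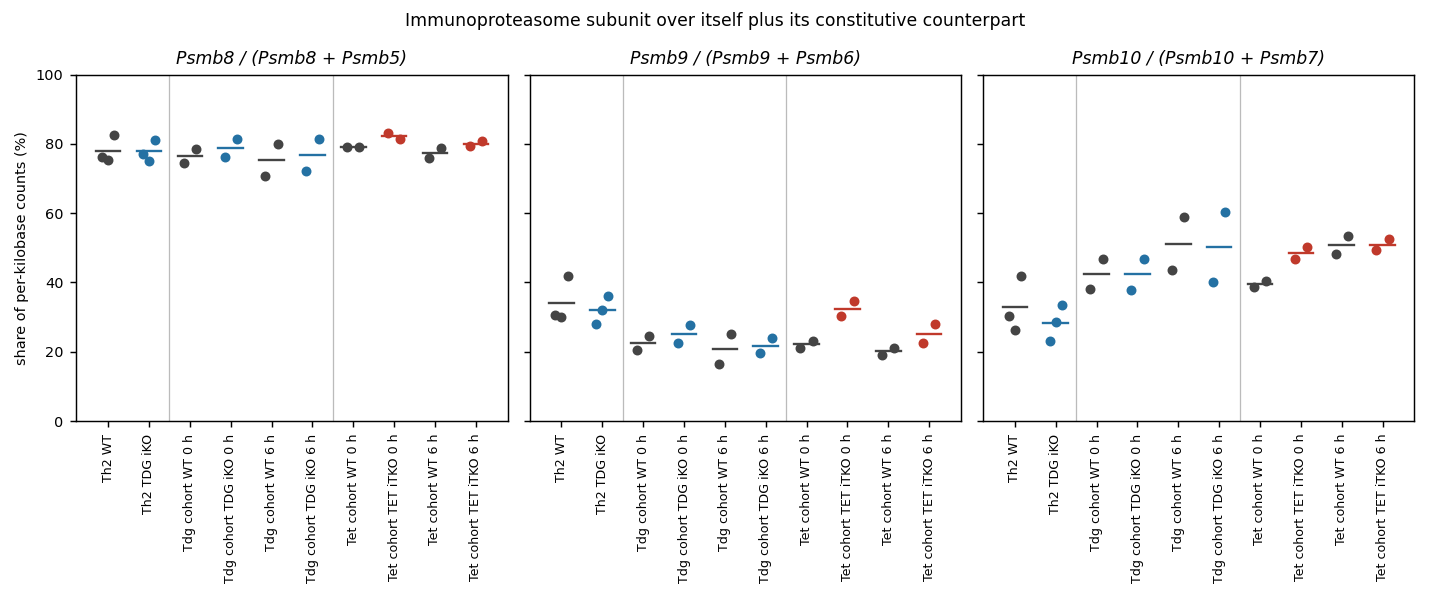
Share (%) of the per-kilobase counts of Psmb8, Psmb9 and Psmb10 over the sum with Psmb5, Psmb6 and Psmb7, in each sample (points) of the 10 groups with group means (lines); WT is grey, TDG iKO blue and TET iTKO red. Psmb8 lies near 80% in all groups, and for Psmb9 the TET iTKO points at 0 h (30.3% and 34.6%) are above the WT points (21.1% and 23.2%).

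The rest of the pathway was read from fixed lists. Over all 12114 genes tested, 4.42% were higher and 381 were lower, so a count of 1 of 10 is near the background. In unstimulated TET iTKO against WT, 0 of the 3 constitutive catalytic subunits passed by DESeq2, with Psmb5 at -0.05 ± 0.14, Psmb6 at -0.18 ± 0.11 and Psmb7 at -0.06 ± 0.11, and neither did any of 11 other subunits of the 20S core. Of 10 proteasome activators and assembly factors, 1 was higher, Psme1 (0.39 ± 0.13), a subunit of the interferon-inducible PA28 activator. Of the 8 tested of 17 other class I heavy chains, 4 were higher and 0 lower, with H2-M2 at 1.39 ± 0.13, H2-T10 at 0.75 ± 0.20 and H2-Q4 at 0.65 ± 0.11. H2-Q4 was among the genes with the most exact copies of 50-base windows of H2-K1 exons. H2-M2 and H2-T10 were not among those with the most copies for H2-K1 or H2-D1. Of 11 loading chaperones and trimming peptidases, 2 were lower, the chaperones Calr (-0.42 ± 0.10) and Hspa5 (-0.32 ± 0.11), and 0 higher. Of 10 regulators tested, 1 was higher, Ciita (1.67 ± 0.46), the class II relative of Nlrc5. At 6 h, H2-M2 was still higher (0.81 ± 0.12) and Calr still lower (-0.40 ± 0.10) in TET iTKO.

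With KLA in WT BMDMs of the Tet cohort, where 12.8% of genes rose, 2 of the 3 constitutive subunits rose, Psmb6 (0.75 ± 0.11) and Psmb5 (0.44 ± 0.14), while Psmb7 was at 0.21 ± 0.11 (adjusted p = 0.154). Of the 11 other 20S subunits, 5 rose and 0 fell, led by Psma6 (0.86 ± 0.10). Psme2 (1.24 ± 0.10), the other PA28 subunit, and Psme1 (0.53 ± 0.13) rose among the 10 activators and assembly factors. Of the 11 chaperones and peptidases 3 rose, Tapbpl (1.14 ± 0.22), a relative of tapasin, and the peptidases Npepps (0.77 ± 0.11) and Erap1 (0.37 ± 0.14). The class I heavy chains rose in 4 of 8 tested, H2-M2 by 2.99 ± 0.13, H2-Q4 by 0.81 ± 0.11 and H2-Q5 by 0.72 ± 0.17. Among the 10 regulators tested, 4 rose and 1 fell, with Ciita at 2.89 ± 0.45, Irf1 at 1.41 ± 0.35 and Rfx5, a subunit of the factor that binds the X box, at 1.33 ± 0.28. In TET iTKO the counts of genes raised were 1 of 3, 2 of 11, 1 of 10, 3 of 11, 3 of 7 and 3 of 10 in the same order of lists, against 1456 of the 11240 genes tested, a share that 1 of 10 and 2 of 11 lie close to.

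Across the 8 BMDM group means, pairs of members varied together to unequal degrees, given as a description over 8 points that share libraries and depth. Tap2 and Tapbp had a Pearson r of 0.993 and Tap1 and Nlrc5 of 0.973, Psmb9 and Psmb10 of 0.919 and H2-D1 and B2m of 0.884. Tap1 and Tap2 (0.944), Tap2 and Nlrc5 (0.937) and Tapbp and Psmb10 (0.899) were also close. The lowest values were those of H2-D1 with Nlrc5 (-0.17) and with Tap1 (-0.01). All r values of this paragraph include the shallow library, and r without it was not computed. For H2-D1 that library had 35754 normalised counts, against 10426 in the other unstimulated WT library of the Tdg cohort. Among 9520 other genes, those most like the mean profile of the 10 were Ythdc1 (r = 0.988), Slc25a33 (0.966), Pilrb1 (0.960), Yipf4 (0.957) and Txnl4b (0.954).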

How the data were processed

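Polyadenylated RNA of mouse Th2 cells and BMDMs was sequenced paired-end in 24 libraries. The deposited files hold raw counts per gene symbol, which the authors made by aligning reads to mm9 with HISAT2 and counting with HTSeq; the annotation, strand setting and versions of these tools were not given in the sources used here. The authors' own tests used DESeq2 1.30.0. The 5 tally rows of each file (32.8% to 51.6% of its total) were left out of library sizes and tests, which left 4982950 to 26657729 assigned counts per library, median 14853861.

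Normalised counts are counts divided by DESeq2 size factors estimated over the 24 libraries. Tests were DESeq2 1.42.0 Wald tests in R 4.3.3 over all genes, with Benjamini-Hochberg adjustment and a threshold of 0.05, fitted within Th2 cells, within each BMDM cohort, over both cohorts (TET against TDG), or over WT Th2 cells and unstimulated WT BMDMs. Replicates 3 and 4 of each Th2 genotype were summed in fits and averaged in levels. Alternatives were edgeR 4.0.16 quasi-likelihood tests, TMM scaling, a filter of 10 counts in 2 libraries, replicate blocks, narrower or wider fits, and leaving out each library. The scripts were tested on simulated data. Levels per kilobase used the longest coding transcript (all exons for Nlrc5).

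Genes named beside the members are the called genes of each list with the largest fold changes, the constitutive counterparts, and the 5 genes most like the mean member profile. The members and lists were chosen with earlier results of these data known. Th2 samples of the same replicate number had correlated deviations from their group means (3 pairs, r from 0.476 to 0.898). The joined Th2 sample stood apart in both genotypes, so these r values cannot show whether the other replicate numbers pair samples. In the Tet cohort the deposited names give the 0 h and 6 h libraries of a replicate 1 shared number, which is not stated to be an animal (r of 0.360 in WT and 0.470 in TET iTKO).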

Additional observations from a re-analysis of the deposited data

How the results depend on the processing

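None of the 24 member results that passed changed direction in 244 recomputed values, whereas 80 of those that did not pass changed sign in at least 1 setting (160 values). Results that passed were selected for estimates far from 0 for their SE, and the settings reuse the same libraries. The contrast is therefore no measure of how stable the calls were. By edgeR, members higher in unstimulated TET iTKO went from 6 to 1 and in Th2 cells against BMDMs from 2 to 1; genes called went from 1006 to 413 and from 821 to 346 for KLA in WT and TDG iKO of the Tdg cohort, from 52 to 1 for the TET interaction, from 38 to 0 for TET against TDG at 0 h and from 11 to 1 at 6 h. With the replicate block, genes called in Th2 cells went from 0 to 15 (2 with replicates 3 and 4 as separate libraries, 87 with both, the last chosen after seeing the data), in TDG iKO at 0 h from 0 to 4, for KLA in the Tdg cohort to 1813 in WT (members 0 to 3: Tap1, Tap2 and Nlrc5) and 1315 in TDG iKO (members 0 to 4: Tap1, Tap2, Psmb10 and Nlrc5), for KLA in TET iTKO members from 3 to 5, for the TET interaction to 224 (members lower 0 to 3), and for TET against TDG to 182 at 0 h (1 member, Psmb9) and 101 at 6 h. The Tdg cohort shares only replicate numbers (r of 0.347 and 0.732 between genotypes, 0.328 and 0.776 with KLA), as do the Tet genotypes (0.06 and 0.02); the block changed no other call count by over 1.5 times. Between Th2 cells and BMDMs no paired analysis was possible, because they share no numbered source. A fit of only the 4 libraries called 1 member for KLA in WT of the Tdg cohort (Nlrc5). Members higher in Th2 cells against BMDMs were 1 with TMM, 1 in a fit of all 10 groups and 0 against the Tdg cohort alone. From plain counts the Psmb8 share was 86.9% in WT Th2 cells, 87.6% in unstimulated WT and 89.6% in TET iTKO BMDMs, the Psmb9 share 46.6%, 32.5% and 44.8%, and the Psmb10 share of that WT group 41.8%. The causes were not tested. Leaving out 1 library gave ranges of genes called of 0 to 7 (Th2), 0 to 1184 (TDG iKO at 0 h), 353 to 2211 and 372 to 696 (KLA in WT and TDG iKO of the Tdg cohort), 0 to 241 (TDG interaction), 280 to 743 and 262 to 699 (TET iTKO at 0 h and 6 h), 1872 to 2453 (KLA in WT of the Tet cohort), 15 to 154 (TET interaction), and 14 to 2409 and 2 to 17 (TET against TDG at 0 h and 6 h). Members called ranged, in the same fits, 0 to 2 (lower, TDG iKO at 0 h), 0 to 1 (KLA in TDG iKO), 0 to 3 and 0 to 1 (TET iTKO at 0 h and 6 h), 5 to 7 (KLA in WT of the Tet cohort), 0 to 4 (TET interaction), 0 to 3 (TET against TDG at 0 h) and 1 to 3 (higher in Th2 cells). With 2 libraries a group, differences of the size seen in TET iTKO were not detectable at the spread of the Tdg cohort.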
